A study of Homo sapiens and Mus musculus with 61 samples.

Results

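The guide aimed at 3'HS1, the DNase I hypersensitive site at the far end of the human beta-globin cluster, was compared with a guide that has no intended human target. Every region in the authors' table for that comparison was taken, which gave 10714 regions of 300 bp, out of 143198 rows in the 17 guide tables of the series. The ratio given for a region is on the log2 scale: the deposited levels were made linear, averaged within each group, and the guide average was divided by the control average. All cells were K562, a human leukaemia line with erythroid features, and all groups carried biotinylated inactive Cas9 (dCas9) and a single guide RNA. The groups were sg3'HS1 (2 libraries) and sgGal4, a guide against the yeast Gal4 sequence (4 libraries), and the labels give no treatment or time for either. DNA held by dCas9 was recovered on streptavidin beads and sequenced, a method named CAPTURE-ChIP-seq. A single guide addressed the site in this comparison, so what follows describes that guide in 1 cell line. The labels number the replicates without saying that they came from separate cultures, so the spread behind each p-value is that of these libraries and may be technical.

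The beta-globin genes lie in a row on chromosome 11, with a locus control region of several hypersensitive sites at one end and 3'HS1 beyond the other. In erythroid cells 3'HS1 is known as a binding site of CTCF, the zinc-finger protein that, with cohesin, anchors chromatin loops. A dCas9 complex first reads a short motif, NGG (the PAM), and then pairs its guide with the DNA from the bases next to the PAM outwards. These bases are called the seed. Partial pairing through the seed alone is known to hold dCas9 at many sites that active Cas9 leaves uncut.

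The target region was chr11:5226142-5226441 (hg19), intergenic, 4379 bp from the nearest protein-coding transcription start, that of the olfactory receptor gene OR51V1. It carries the authors' on-target tag and is shown because each comparison of sequence below starts from it. The capitals mark the NGG site described next.
3'HS1 target region, forward strand: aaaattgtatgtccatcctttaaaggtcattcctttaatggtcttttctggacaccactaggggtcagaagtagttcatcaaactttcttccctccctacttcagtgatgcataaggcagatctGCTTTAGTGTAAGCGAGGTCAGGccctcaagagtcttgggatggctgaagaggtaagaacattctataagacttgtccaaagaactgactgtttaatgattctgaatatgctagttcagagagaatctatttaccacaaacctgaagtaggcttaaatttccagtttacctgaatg

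The sequence of the guide is not given in the sources used here. The target region holds 27 sites of 20 bases followed by NGG, on both strands. For each site the 10 bases next to the PAM were searched, with NGG, in all listed regions on both strands. The site GCTTTAGTGTAAGCGAGGTCAGG (chr11:5226266-5226288, forward strand) had its 10 bases in 25 regions, the target included, and the next site had them in 6. This choice used only which regions were listed and no ratio, and it does not show which site the guide was made for. The search with 10 bases was planned, and shorter seeds of 5 and 6 bases were added after the data had been seen. In what follows, the match of a region is the longest run of bases, counted outwards from NGG, that any of its sites shares with this site.

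Sites with the longest matches away from the target, and those of some regions with the highest ratios, are shown so that the shared run can be seen. Capitals mark the shared run and the NGG, each site is written 5′ to 3′ on its own strand, and all positions are hg19.
3'HS1 (chr11:5226266-5226288, forward): GCTTTAGTGTAAGCGAGGTCAGG
COG5 intron, nearest start HBP1 (chr7:106933713-106933735, reverse): actttcagGTAAGCGAGGTCAGG
LPIN3 exon, nearest start EMILIN3 (chr20:39988417-39988439, reverse): gactgtcctTAAGCGAGGTCTGG
ITGA3 exon (chr17:48155631-48155653, reverse): cccacatgcTAAGCGAGGTCTGG
USP25, intergenic (chr21:17096281-17096303, reverse): aagcagggtTAAGCGAGGTCAGG
SLC44A3 intron (chr1:95343864-95343886, reverse): acagggcacTAAGCGAGGTCAGG
PRICKLE1 intron (chr12:42983689-42983711, forward): tcggccctgaAAGCGAGGTCGGG
LEPROT, upstream (chr1:65886045-65886067, forward): cgagtagcggtAGCGAGGTCTGG
USP20 exon (chr9:132625545-132625567, forward): agaagctggtctctGAGGTCTGG
AKNAD1 exon (chr1:109373343-109373365, forward): cccagcaagcagctGAGGTCCGG
CLASP1 intron (chr2:122282550-122282572, forward): gctagaggccagggGAGGTCGGG
OSBP2 intron (chr22:31198867-31198889, forward): gcgcacggctcctctAGGTCCGG
The runs fall from all 20 bases at 3'HS1 to 12 in COG5, 11 in the LPIN3, ITGA3, USP25 and SLC44A3 regions, 10 in PRICKLE1, 9 in LEPROT, 6 in USP20, AKNAD1 and CLASP1, and 5 in OSBP2. A ZNF407 exon region also has 12 and is described with the values below. Outside the run, the COG5 site shares further single bases and has 16 of the 20 in common with the target, and the USP20 site has 8.

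The libraries differed in depth. The listed regions held 147774 and 29397 reads in the guide libraries, and 59874, 107098, 12121 and 12152 in the sgGal4 libraries, with the reads recovered from the deposited log2 levels. These sums are not the depth of the whole libraries. Between 9.17% and 40.7% of regions had 0 reads in a library, and the deposited levels set 0 reads at 2.40 in guide replicate 2, at 2.58 and 2.70 in sgGal4 replicates 3 and 4, and at most at 0.22 elsewhere. Such an offset lowers the ratio of a region that the shallow control libraries lack. The median ratio over all regions was 0.43, and it was −0.11 with recovered reads per 100000 (pseudocount 1), so ratios are to be read against that shift.

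The 3'HS1 region held 64 of the reads of guide replicate 1 (0.0433%; 95% Clopper-Pearson interval 0.0334 to 0.0553) and 1288 of those of guide replicate 2 (4.38%; 4.15 to 4.62). In sgGal4 it held 10 reads (0.0167%), 13 (0.0121%), 1 (0.00825%) and 1 (0.00823%). Both guide libraries were thus above every control library, but the 2 guide libraries lay much farther apart than the controls. On the log2 scale of the table the levels were 6.02 and 11.38 for the guide (SD 3.79, n = 2) and between 3.51 and 3.97 for sgGal4 (SD 0.21, n = 4). The ratio was 6.74, the second highest of the table, and limma's adjusted p was 0.0856. With replicate 1 alone the ratio was 2.35 and the rank 627, and with replicate 2 alone it was 7.70 and the rank 1. Intervals and limits on a count of 0 cover counting error only, since the reads carry no molecular identifiers.

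The region with the highest ratio lay in a coding exon of USP20, a gene for a deubiquitinating enzyme (chr9:132625397-132625696). It held 1205 and 241 reads in the guide libraries and 2, 8, 0 and 0 in sgGal4. As shares these were 0.815% and 0.820%, nearly equal in the guide libraries, against at most 0.00747% in sgGal4. Where sgGal4 had 0 reads, counts of 3 would have been 0.0248% and 0.0247% of the library. The ratio was 7.28, the limma difference of mean log2 levels 7.24 ± 0.68 (SE), and limma's adjusted p 0.00411. The only other region to pass was an intron of NDUFAF6, a gene for an assembly factor of mitochondrial complex I, with PLEKHF2 as the nearest start (chr8:96108381-96108680). It held 169 and 79 reads against 3, 5, 0 and 0, with a ratio of 5.19 and a limma adjusted p of 0.0322.

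**Figure D1:**
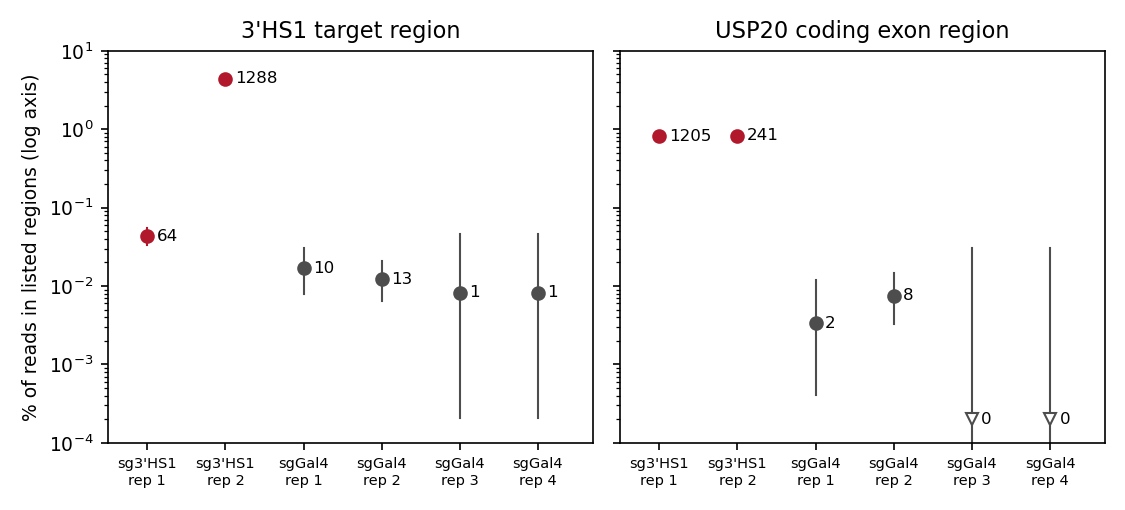
Share of the reads in listed regions that fell in the 3'HS1 region (left) and in the USP20 exon region (right), per library on a log axis, with the number of reads beside each point. Lines are 95% Clopper-Pearson intervals, open triangles mark 0 reads, and the guide libraries (red) stand at 0.0433% and 4.38% for 3'HS1 and at 0.815% and 0.820% for USP20.

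Of all 10711 regions outside the cluster, these 2 (0.0187%) reached a ratio of 1 with an unadjusted limma p no higher than 1e-05, and the same 2 had an adjusted p below 0.05 (0.0187% of all regions). No region with a ratio of −1 or below passed limma's adjusted limit (0.0%). At an unadjusted limma p below 0.05, 1595 regions had a ratio of at least 1 (14.9%) and 1635 a ratio of −1 or below (15.3%). Without guide replicate 1 the adjusted p of USP20 was 0.180 and that of the NDUFAF6 region 0.334, and without any 1 of the sgGal4 libraries that of the NDUFAF6 region lay between 0.0610 and 0.178. The 2 calls became 0 without guide replicate 2 at the p limit, while 229 regions then passed the adjusted limit on the higher side and 1700 on the lower. With 1 guide library left, the spread comes from the sgGal4 libraries alone and the lone library is assumed to vary like them.

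Short matches to the 3'HS1 site were spread over the table. A run of 6 bases or more, GAGGTCNGG, was in 2009 of the 10714 regions (18.8%). In the other 16 guide tables, searched in the same way in regions of the same length, it was in 1.59% to 2.13% of regions. Among the 100 regions with the highest ratio it was in 86 here and in 1 to 5 in the other tables. The site was picked for the number of regions listed here that share its 10 bases. That choice favours this list over the others at 6 bases too, so these counts are given as a description. The other NGG sites of the target region had their 6 bases in 39 to 241 regions here. All tables share the 4 sgGal4 libraries, so they are not independent of each other. The sources used here do not say from which libraries the regions were listed. A region listed for its reads in a guide library had to be high there, so the share of listed regions with a match is a property of the list.

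**Figure D2:**
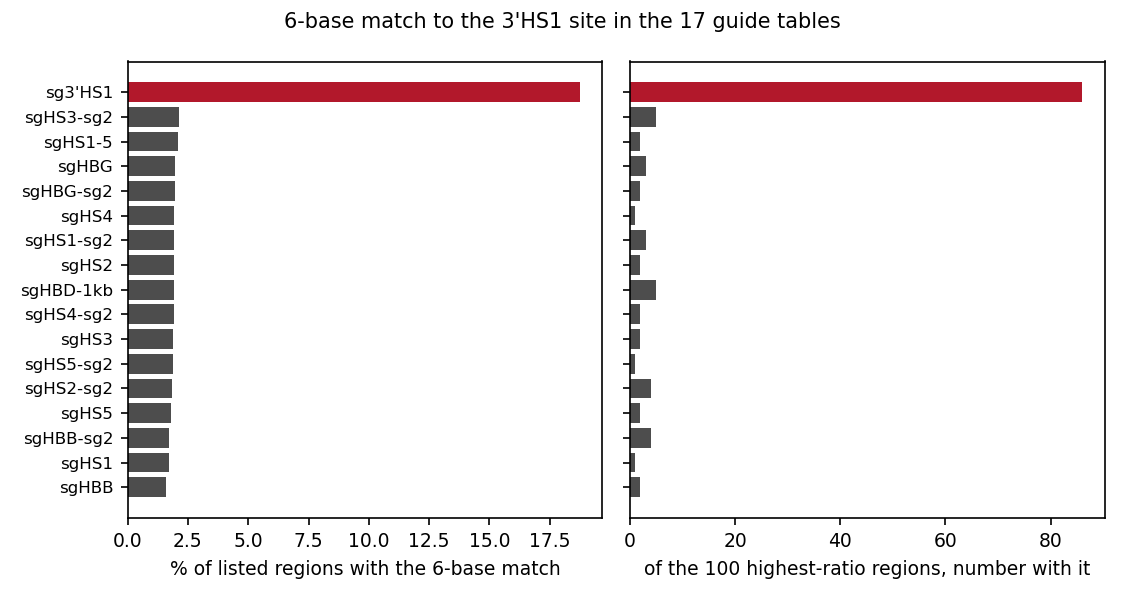
Percentage of listed regions that hold the 6-base run with NGG (left) and number of such regions among the 100 with the highest ratio (right), for each of the 17 guide tables. The table of sg3'HS1 (red) stands at 18.8% and 86, and the others between 1.59% and 2.13% and between 1 and 5.

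The ratio went with the length of the match. The 66 regions with no shared base next to NGG had a median ratio of −1.81, the 3344 with 2 bases −0.53, and the 1142 with 5 bases 1.14. It was 1.52 in 1697 regions with 6 bases, 1.85 in 64 with 8, 1.93 in 18 with 10, 3.35 in 4 with 11 and 5.27 in the 3 with 12 or more. The climb was not steady, since 212 regions with 7 bases had 1.30 and 11 with 9 bases 1.23. Regions are not replicates, and the libraries behind every class are the same 6. The site was picked from this list, and a region listed for its guide reads had to be high there. The medians by length of match are thus given as a description. Base composition also differed between the classes. The median GC content was 29.7% with no shared base, 58.0% with 2 bases, 67.0% with 4, 56.0% with 6, 67.0% with 8 and 42.7% with 12 or more. The part of GC content in the ratio was not tested.

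**Figure D3:**
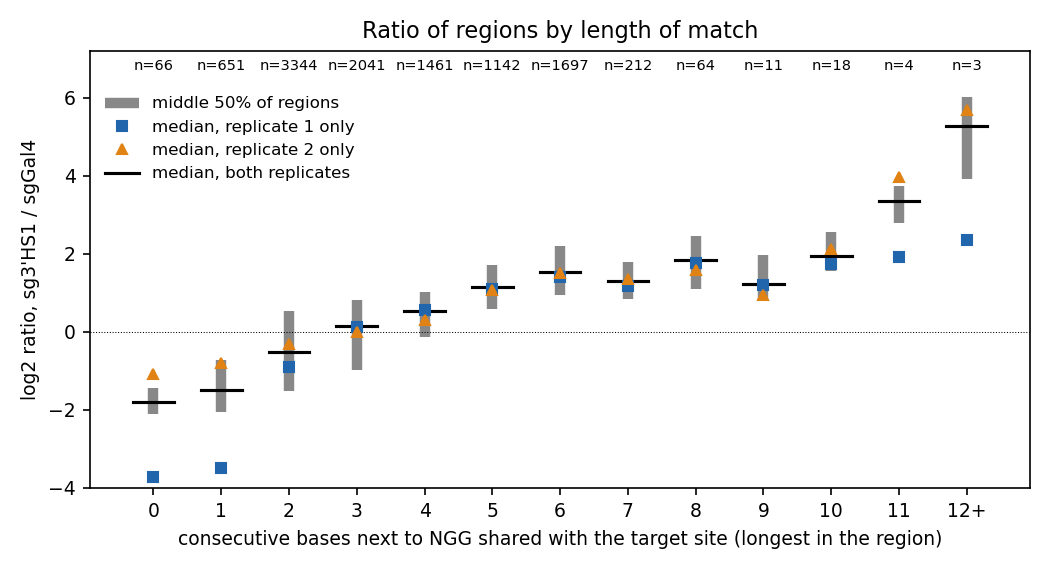
Log2 ratio of sg3'HS1 over sgGal4 for regions grouped by the longest run of bases next to NGG shared with the 3'HS1 site, with the number of regions above each class. Black lines are medians with both guide libraries, grey bars the middle 50% of regions, squares and triangles the medians with guide replicate 1 or 2 alone, which lie apart at both ends, with replicate 2 higher: at 0 bases they are −3.73 and −1.08, at 1 base −3.48 and −0.81, at 11 bases 1.93 and 3.96, and at 12 or more 2.35 and 5.69.

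Of the 2009 regions with 6 bases or more, 1445 (71.9%) had a ratio of at least 1, against 1833 of 8705 without it (21.1%) and 30.6% of all regions. Both guide libraries lay above every sgGal4 library in 1133 of them (56.4%), against 24.7% of all regions. Both lay below every sgGal4 library in 22 (1.10%), against 18.3% of all regions. These comparisons use the deposited levels. A guide library with 0 reads thus counts as below sgGal4 replicates 3 and 4 even where these also have 0 reads. The median ratio was 1.51 with the run and 0.11 without it. Since the site was picked from this list, these counts and medians too are a description of the list. The median region with the run had 17 and 4 reads in the guide libraries and 2, 3, 0 and 1 in sgGal4. The median region without it had 9 and 1, and 5, 10, 1 and 1.

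Seen per library, the guide libraries gave more of their reads to regions with a match. Regions with 6 to 9 bases took 38.9% and 38.2% of the guide reads and 8.66%, 8.87%, 11.4% and 13.97% of the sgGal4 reads. The mean share was 38.6% ± 0.49 (SD, n = 2) against 10.7% ± 2.5 (SD, n = 4), and the groups did not overlap. The exact two-sided permutation test over libraries gave p = 0.133, the smallest value that 2 against 4 libraries allow. The site was picked from this list, and a region listed for its guide reads had to be high there. The gap may thus be partly set by the choice of regions, and the test is no support for it. In these regions the guide libraries thus agreed closely, in contrast to the target. Regions with 5 bases took 16.0% and 15.5% against 7.05% to 9.17%, and regions with fewer took 44.3% and 40.2% against 76.9% to 84.2%.

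The regions with 10 bases or more behaved differently between the guide libraries. Without the target, the other 24 took 0.644% of the reads of guide replicate 1 and 1.64% of replicate 2, against 0.0635%, 0.0756%, 0.190% and 0.181% in sgGal4. Of the 25 regions, 20 (80.0%) had a larger share in replicate 2, as did the target, against 936 of 1984 (47.2%) with 6 to 9 bases and 2937 of 7563 (38.8%) with fewer than 5. All 7 regions with 11 bases or more had a larger share in replicate 2. The guide libraries differed in depth (147774 and 29397 reads), and the part of depth in this split was not tested.

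**Figure D4:**
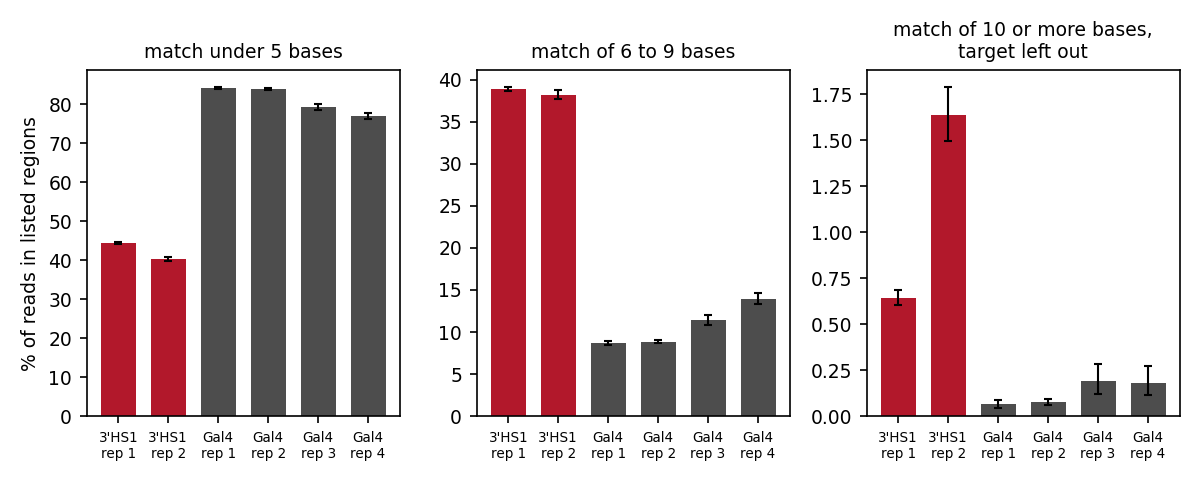
Percentage of the reads in listed regions that fell in regions with fewer than 5 matched bases (left), with 6 to 9 (middle) and with 10 or more but without the target (right), per library, with 95% Clopper-Pearson intervals. The guide libraries (red) stand at 38.9% and 38.2% in the middle panel and at 0.644% and 1.64% in the right one.

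The longest match off the target was in an intron of COG5, a gene for a subunit of the Golgi tethering complex (chr7:106933600-106933899). It held 202 and 147 reads in the guide libraries and 2, 3, 0 and 2 in sgGal4, and its ratio of 5.27 was the sixth of the table. Its share was larger in replicate 2 (0.500%) than in replicate 1 (0.137%). The region in a ZNF407 exon, also with 12 bases, was lower: 6 and 23 reads against 0, 6, 1 and 1, with a ratio of 2.56. Guide replicate 1 there lay within the sgGal4 range in share of reads. The USP25 region with 11 bases held 2 and 43 reads against 0, 0, 0 and 3, so its ratio of 3.15 rested on replicate 2. The SLC44A3 intron region, also with 11 bases, held 11 and 9 reads against 2, 5, 2 and 0, and its ratio of 1.68 was the lowest of the regions with 11 bases or more.

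The LPIN3 exon region, 11 bases, held 63 and 21 reads in the guide libraries and none in sgGal4. Over the group its share was at least 30.2-fold higher, with 3 reads over the 4 control libraries as the limit. The ITGA3 exon region, in a gene for an integrin chain, held 50 and 20 reads against 0, 2, 1 and 0 (ratio 3.55). The PRICKLE1 intron region, in a planar polarity gene, held 63 and 39 against 0, 1, 0 and 1 (4.19). None of these passed limma's adjusted limit, with adjusted p of 0.0652, 0.0847 and 0.0744. The remaining regions with 10 bases ranged down to APCDD1 at 0.13, with 9 and 1 reads against 0, 5, 1 and 2.

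The share of genomic sites that were listed was also counted by length of match. Since the site was picked for the number of listed regions that share its 10 bases, the shares at 10 bases or more are partly set by that choice and are given as a description. Of 471677 genomic sites with 6 bases or more and NGG on the listed chromosomes, 2100 (0.445%) lay in a listed region. The share was 4.12% of 1552 sites with exactly 8 bases, 28.6% of 63 with 10, 4 of 5 with 11, both sites with 12, and the target itself, the only site with more. Sites with exactly 7 bases were the exception, with 212 of 103764 (0.204%). Reads that aligned to more than 1 place were dropped, per the labels' protocols, and the part of that step in the share of sites listed was not tested. Within 1000 bp of a protein-coding transcription start, 5.34% of sites with 6 bases or more were listed, against 0.318% of those farther away. For 10 bases or more these were 6 of 11 and 19 of 60.

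The site lay near the middle of the region. The median distance of the site from the centre was 28 bp in regions with 6 bases or more, and 71 to 82 bp in the other 16 tables. Of the 1445 such regions with a ratio of at least 1, 1122 (77.6%) had it within 50 bp of the centre. Of the 76 with a ratio below 0, 28 (36.8%) did.

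**Figure D5:**
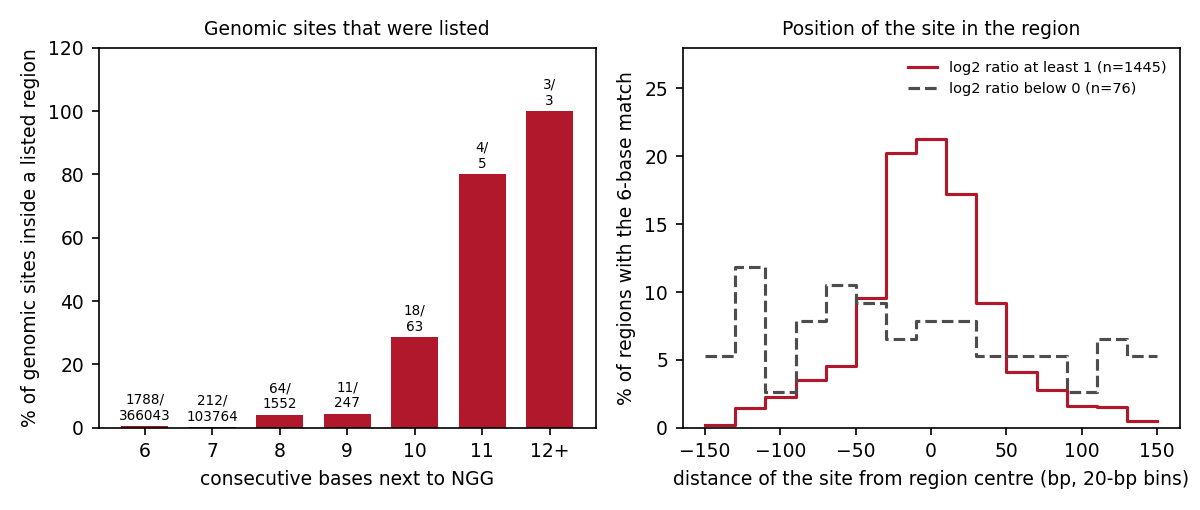
Left, percentage of genomic sites inside a listed region by the number of bases shared next to NGG, with the counts above each bar, from 0.204% at 7 bases to all 3 at 12 or more. Right, distance of the site from the centre of its region in bins of 20 bp, for regions with the 6-base run and a ratio of at least 1 (solid, n = 1445) or below 0 (dashed, n = 76).

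Outside the cluster, the 15 regions with the highest ratio were taken among those above every sgGal4 library in both guide libraries. All 15 had 5 bases or more: 1 with 12, 1 with 9, 9 with 6 and 4 with 5. A match of 5 bases or more was in 29.4% of all regions and in 63.3% of those above every sgGal4 library. The ratios of the 15 ran from 4.54 to 7.28. A region in an OSBP2 intron, next to the start of this oxysterol-binding protein gene, held 328 and 36 reads against 0, 3, 0 and 0 (ratio 5.75). A coding exon of AKNAD1 held 331 and 32 against 0, 0, 1 and 0 (5.48). Upstream of LEPROT, a gene for a membrane trafficking protein, 240 and 14 reads stood against none, a share at least 91.4-fold higher. These 3 regions had larger shares in guide replicate 1, and limma's adjusted p was 0.0590 for each.

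The genes at the other regions of this group have varied roles. GLUD2, for a glutamate dehydrogenase, held 155 and 22 reads against 0, 1, 0 and 0. CLASP1, for a microtubule plus-end protein, held 249 and 34 against 1, 1, 0 and 2. The region 22509 bp from the start of EIF2AK1, the gene for the haem-regulated kinase of translation in red cell precursors, held 222 and 31 against 0, 8, 0 and 1. The C17orf49 exon region held 133 and 16 against none, a share at least 53.6-fold higher. The rest were ZC2HC1C (309 and 42 against 1, 2, 1 and 1), GSDMC (235 and 105 against 3, 13, 2 and 0), CREBL2 (138 and 19 against 1, 1, 0 and 0), the RNF111 intron near SLTM (277 and 42 against 2, 7, 1 and 1) and SOCS5 (186 and 19 against 0, 3, 1 and 0). That both guide libraries lay above all 4 control libraries was part of how these 15 were picked.

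Of these 15 intervals, 10 overlapped a region listed for other guides. The CREBL2 region was in 9 other tables, with ratios from 0.87 to 2.99, EIF2AK1 in 6, from 0.45 to 1.86, and USP20 in 4, from 1.44 to 2.30. LEPROT was in 1, with a ratio of 3.24 for sgHS3. OSBP2 and SLTM were in 4 each, AKNAD1 and GLUD2 in 2 each, and SOCS5 and CLASP1 in 1 each, with ratios of at most 1.25. The COG5, NDUFAF6, GSDMC, ZC2HC1C and C17orf49 regions were in none. The 3'HS1 region overlapped a region in 3 others, with ratios of 0.58 for the sgHS1-5 pool, 0.52 for sgHS4-sg2 and −0.05 for sgHS4. The tables were scaled separately and share their controls.

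The authors' table tags 1 region as off-target, in an exon of HEXIM2 (chr17:43238052-43238351), a gene for an inhibitor of the transcription elongation factor P-TEFb. It held 27 and 7 reads against 2, 1, 0 and 0, with a ratio of 2.76, rank 317 and a limma adjusted p of 0.101. Its longest match was 5 bases, with 10 of 20 bases shared in all.

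Within the beta-globin cluster 2 other regions were listed. One lay in the annotated span of HBG2, a fetal gamma-globin gene, outside its exons and 4113 bp from its nearest start. That region held 7 and 2 reads against 3, 9, 0 and 1 (ratio 0.45, near the median of all regions). One near HBG1, the paired fetal gene, held 0 and 0 against 7, 14, 0 and 2 (−1.93, limma adjusted p 0.123). Within 1 Mb on either side, TRIM21 had a ratio of 0.79 (10 and 2 reads against 1, 1, 0 and 2), TRIM68 1.30 (10 and 1 against 0, 3, 0 and 0), and TRIM6 0.14 (26 and 0 against 8, 11, 0 and 4). On the far side, CNGA4 had 1.81, a region in FHIP1B −2.33 and one near CCKBR 2.29, the last with a 6-base match. None passed limma's adjusted limit, and of the olfactory receptor genes near the cluster only OR51V1 had a listed region within 10000 bp, the target itself.

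Among genes of the factors that work at CTCF sites, 1 region stood well above the rest. Of 14 genes for CTCF, cohesin and partners, 5 had a region within 10000 bp of the start. A ratio of at least 1 was found in 2 of the 5, against 30.6% of all regions. All 5 lay within 1000 bp of a start, where 1710 of 4531 regions had such a ratio. The median of the 5 was 0.98, against 0.43 for all regions. ZNF143, a zinc-finger gene whose protein occupies many loop anchors, had the highest at 4.10 (199 and 32 reads against 10, 9, 0 and 0), and it was the one with a 6-base match. CTCF itself had 1.25 (29 and 2 against 4, 6, 0 and 2), and the cohesin genes SMC1A, PDS5A and STAG1 lay between 0.47 and 0.98. The start of the CTCF core motif, CCACNAGGG on either strand, was in 391 regions (3.65%), the target among them, with a median ratio of −0.27. It was in 65 of the 3278 regions with a ratio of at least 1 (1.98%).

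Of 15 erythroid regulators, 9 had such regions, 10 in all. Their median ratio was 1.0, against 0.43 for all regions, and 5 were at 1 or above, against 30.6% of all regions. Both guide libraries lay above every sgGal4 library in 1 of the 10, against 24.7% of all regions. Both lay below in 1, against 18.3%. KLF1, the erythroid Krüppel-like activator of HBB, had 1.42 (17 and 4 against 5, 10, 0 and 0), and ZBTB7A, a repressor of fetal globin, 1.19 (17 and 0 against 1, 6, 0 and 0). ZFPM1 had 1.02 (29 and 0 against 5, 10, 1 and 0) and LYL1 0.98. RUNX1, GFI1B and BACH1 had −0.07, −0.31 and −1.55. GATA2, a GATA factor of early progenitors, had −1.99 (0 and 0 against 12, 15, 1 and 0). In the alpha-globin cluster HBQ1 alone was listed, at 0.90. None of the listed regions of either list, nor HBQ1, passed limma's adjusted limit.

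The highest pair of erythroid entries were coding exons of TAL1, a transcription factor of blood and red cell formation, and neither had a match over 3 bases. The region chr1:47691242-47691541 held 5 and 98 reads against 0, 0, 5 and 4, and chr1:47685640-47685939 held 3 and 59 against 1, 2, 3 and 0. Their ratios of 3.18 and 3.51 rested on guide replicate 2, and with replicate 1 alone they were −1.42 and −1.05. The second was named after its values were seen.

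The 5 regions where the share in guide replicate 2 exceeded that in replicate 1 most were 3'HS1, EEF1A1, TBC1D5, COG5 and the first TAL1 exon. At the start of EEF1A1, the translation elongation factor gene, 85 and 461 reads stood against 26, 48, 279 and 59. As shares these were 0.0575% and 1.57% against 0.0434%, 0.0448%, 2.30% and 0.486%, so the shallow libraries of both groups were the high ones. A TBC1D5 intron, in a gene for a Rab GTPase-activating protein, held 1 and 171 against 4, 7, 8 and 7. Neither EEF1A1 nor TBC1D5 had a match over 2 bases.

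In the other direction replicate 1 exceeded replicate 2 most at TSPAN17, AKNAD1, LEPROT, TNFRSF8 and OSBP2, all with matches of 5 to 9 bases. Of all regions, 29.4% had 5 bases or more. TSPAN17, a tetraspanin gene, held 222 and 7 reads against 4, 7, 0 and 1. TNFRSF8, the gene for CD30, held 240 and 16 against 2, 8, 2 and 0. Across all regions the reads of the guide libraries had a Spearman correlation of 0.45, given as a description over 10714 regions of unequal depth.

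The lowest ratios were in regions with no guide read. OXSR1, a kinase gene, held 0 and 0 reads against 33, 45, 3 and 1 (−3.34), and over the group its share was at least 25.3-fold lower. GPC5, a glypican gene, held 0 and 0 against 25, 31, 3 and 4, KCTD3 against 19, 27, 6 and 3, TLK1 against 20, 29, 5 and 2, and ATXN1 against 15, 29, 2 and 5, at least 19.5-, 16.98-, 17.3- and 15.7-fold lower. Limma's adjusted p was between 0.0783 and 0.0913. Their matches were of 1 to 3 bases.

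High and low regions differed in where they lay. Of the 1595 regions with a ratio of at least 1 and an unadjusted limma p below 0.05, 57.7% had 6 bases or more, and 49.0% lay within 1000 bp of a start. Of the 1635 with a ratio of −1 or below, 1.04% had 6 bases or more and 4.83% lay near a start, against 18.8% and 42.3% of all regions. Their median GC content was 61.3% and 40.7%, against 60.0%. Within both kinds of place the match went with the ratio, again as a description of this list, from which the site was picked. Near starts the median was 1.66 in 626 regions with 6 bases or more and 0.65 in 3905 without, and farther away it was 1.44 in 1383 and −0.95 in 4800.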

How the data were processed

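Bowtie 1.0.0, Picard and the build hg19 are named in the submitters' processing notes, and reads with 1 place of alignment were kept, per the labels' protocols. Neither the peak caller nor the listing rule nor the normalisation is stated in these sources. The authors deposited log2 levels per library in 300 bp regions, scaled separately in each table. In each column the levels lie on a line in log2(reads + 1), which gave the reads back, with 100% of values whole within 0.01. The authors' M, a log2 ratio, equalled the recomputed ratio. limma 3.58.1 (R 4.3.3) compared the log2 levels of 2 guide and 4 sgGal4 libraries over all 10714 regions, with empirical Bayes variances and Benjamini-Hochberg adjustment, and was tested on simulated data. Annotation came from GENCODE 44 lifted to hg19, by protein-coding genes, and the nearest gene is that with the nearest start.

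The members, lists and tests were chosen with earlier results of these data known. Named regions were the target, the cluster's regions, those passing the p limit, the 15 highest and 5 lowest with groups that did not overlap, the tagged region, the 5 where either guide library most exceeded the other, and listed genes. Regions with 10 bases or more were added after the data were seen. Alternatives were another scale or pseudocount, quantile normalization, a minimum of 20 reads, trended and robust variances, each library left out, a replicate block, subsets of sgGal4, other seeds and other distances.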

Additional observations from a re-analysis of the deposited data

How the results depend on the processing

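The target kept a positive ratio under all 14 other settings. Both guide libraries lay above every sgGal4 library there. Leaving libraries out could thus not change the sign, and the kept sign is no support. Its limma adjusted p fell below 0.05 with quantile normalization (0.0292) and with at least 20 reads over the 6 libraries (0.0415, 8685 regions). It also did with the replicate block (0.0260) and with sgGal4 replicates 1 and 2 only (0.0412). It was 0.0599 with pseudocount 5, 0.0968 with trended and robust variances, 0.0998 with pseudocount 1 and 0.277 with sgGal4 replicates 3 and 4 only. With 1 sgGal4 library left out it ran from 0.0976 to 0.219. The ratio was 7.70 without guide replicate 1 and 2.35 without guide replicate 2. With a lone guide library the spread is that of sgGal4. The counts of regions moved far more. Those passing the p limit were 2, and became 0 with recovered reads per 100000 (pseudocount 1), 8 with pseudocount 5, 159 with trended and robust variances, 1 with the block, 6 with sgGal4 replicates 1 and 2, 0 with replicates 3 and 4, and 0 to 1 with 1 library left out. In the same order of settings, regions raised at the adjusted limit (2) were 259, 227, 646, 2376, 2724 and 0, with 471 under quantile normalization, 223 with at least 20 reads and 0 to 229 with 1 library left out. Regions lowered (0) were 632, 118, 457, 311, 377 and 0, then 741, 22 and 0 to 1700. Of the raised regions, those with the 6-base run were 175 of 259 and 189 of 227 with pseudocounts 1 and 5. They were 471 of 646 with trended and robust variances, 1123 of 2376 with the block and 1235 of 2724 with sgGal4 replicates 1 and 2. They were 344 of 471 under quantile normalization and 188 of 223 with at least 20 reads. The run was in 18.8% of all 10714 regions. With any 1 sgGal4 library left out, 1 region was raised and it had the run. The cause of these moves was not tested.

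The difference in median ratio between regions with and without the 6-base run (1.41) stayed positive, at 1.92 and 1.27 with pseudocounts 1 and 5, 1.77 with at least 20 reads, 2.31 with the block, 2.25 and 1.17 with sgGal4 replicates 1 and 2 or 3 and 4, and 1.31 to 1.67 with 1 library left out. The site was picked from this list, so that difference is given as a description. Matches were in 100 regions with 8 bases, 3 with 12, and, added after the data were seen, 2009 with 6 and 3151 with 5. The gene lists gave no call at 5000, 10000 or 50000 bp. Of 28 named regions 25 kept the sign of the ratio, all of the 15 highest among them, and EEF1A1, TAL1 and TBC1D5 did not. The 15 highest and 5 lowest were picked with both guide libraries on the same side of every sgGal4 library. Leaving libraries out could thus not change their sign, and the kept sign is no support for them. The replicate numbers were not taken to pair the libraries: only 2 numbers are shared, and the labels give them no meaning. The deviations of same-numbered libraries correlated at −0.25 and 0.22. The deviations of the 2 guide libraries from their mean mirror each other, so these values cannot decide on pairing.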
